A study of Danio rerio with 8 samples.

Results

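The genes described here encode 7 transcription factors or cofactors that are known for their part in making osteoblasts, the cells that lay down bone: sp7, runx2a, runx2b, runx3, cbfb, mef2ca and msx2b. They were chosen by name, for their known roles and with earlier results of these data known, and each matched 1 of the 32520 gene rows in the table of the sorted cells. The cells came from zebrafish larvae of the AB strain at 4 days post fertilization that carried Tg(sp7:sp7-GFP), a line (ulg071) with GFP cDNA placed in the endogenous sp7 gene. The larvae were offspring of a heterozygous carrier and a wild-type fish, so GFP-carrying cells of both sorted populations share the same single altered sp7 allele. Larvae were pooled and dissociated, and living cells were sorted by fluorescence into P2, with strong GFP, and P1, with weak GFP. There were 3 P2 libraries (replicates 1, 2 and 4) and 5 P1 libraries (replicates 1, 2, 3, 5 and 6), all from amplified full-length cDNA. The labels do not say which libraries came from separate clutches or sorts, so the p-values measure only the spread between these samples, which may in part be technical.

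As background, Runx proteins bind DNA through a Runt domain and need Cbfb, a partner that does not itself touch DNA, for stable binding. In mice Runx2 commits mesenchymal cells to the osteoblast lineage, and Sp7 (osterix), a zinc finger protein, acts downstream of it in the step to a bone-forming cell. Zebrafish kept duplicates of several of these genes, among them runx2a and runx2b, mef2ca and mef2cb, and msx2a and msx2b. Mef2c and Msx2 act in the craniofacial skeleton, Mef2c in cartilage maturation and jaw patterning and Msx2 in skull precursor cells of mice.

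P2 libraries held between 7510312 and 10811492 recovered gene reads and P1 libraries between 8528850 and 13034333. Mitochondrial genes took between 13.2 and 23.0% of the reads in P2 and between 21.2 and 35.5% in P1. The labelled cell type was checked against osteoblast markers, of which 6 of 7 tested were higher in P2 and 0 lower. The summed normalized read count of the 8 listed markers was between 44022 and 63686 in P2 and between 236 and 1194 in P1. Most of the P2 sum came from col10a1a, with 51802, 37514 and 33015 in P2 replicates 1, 2 and 4, against 96.3 to 392 in P1. The marker bglap (osteocalcin) had 0 reads in all P2 libraries and at most 1 read in any P1 library. Markers of other cells were also present, more so in P1. Among 9 skeletal muscle genes 0 passed limma in either direction (4 at an unadjusted p under 0.05, and 0 by edgeR and by DESeq2), with sums between 156 and 12093 in P2 and between 1369 and 38311 in P1. Without P2 replicate 2, limma called 7 of the 9 muscle genes lower in P2. Among 7 keratinocyte genes 3 were lower in P2 and 0 higher, with sums between 351 and 2258 in P2 and between 2100 and 19758 in P1, and 5 of 6 tested macrophage genes were lower in P2. P2 replicate 2 stood apart from the other P2 libraries, with sums of 12093 for muscle and 2258 for keratinocytes against at most 159 and 419 in P2 replicates 1 and 4, and results are therefore also given without it. In sorted bulk samples, fewer cells of a type and less RNA per cell cannot be told apart.

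Of the 7 genes, 6 were higher in P2 and 0 were lower by limma at a Benjamini-Hochberg adjusted p under 0.05, and msx2b did not pass. Over all 18475 genes tested, 7.57% were called higher in P2 and 7.05% lower. These shares are the background for every list count given below. Since the cells were sorted on sp7-GFP, sp7 only checks the sort, and without it 5 of 6 genes were higher. For all 6 called genes every P2 library was above every P1 library, a separation that 11.8% of all genes showed. The median log2 fold change (P2 minus P1, on the scale of log2(normalized read count + 1), which understates low genes) was 2.05 over the 7 genes and 0.00 over all genes tested.

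**Figure D1:**
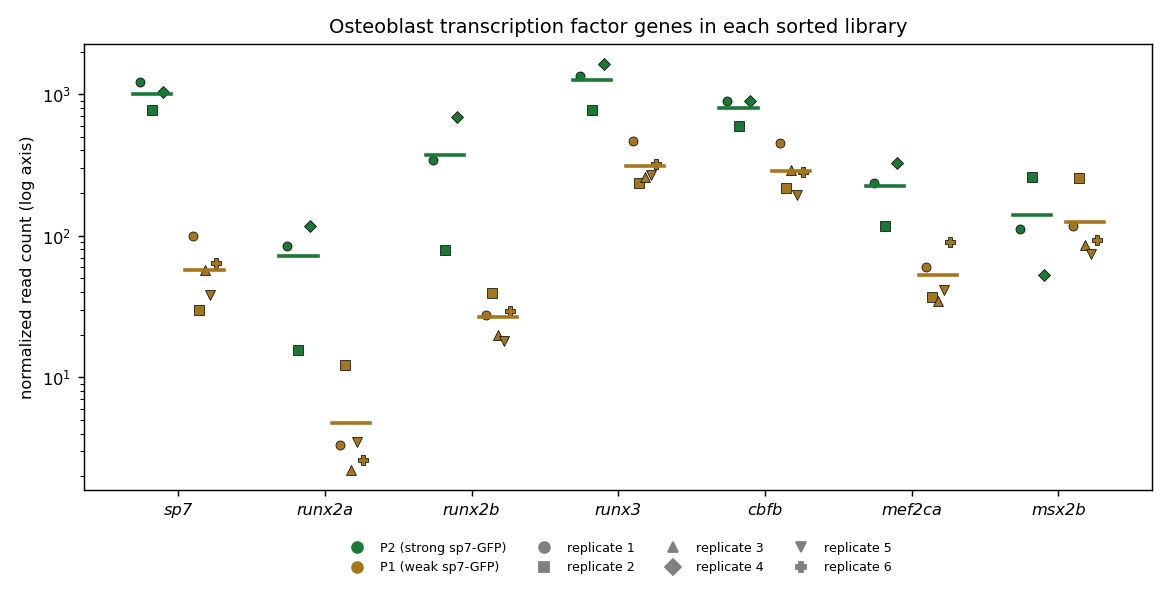
Normalized read counts (log axis) of the 7 genes in each library, P2 in green to the left of P1 in brown, with a marker shape for each replicate number and a line at the group mean. The groups are apart for 6 genes and overlap for msx2b, and P2 replicate 2 (green square) is the lowest P2 library for the same 6.

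The sort gene came first. sp7 had normalized read counts of 1227, 771 and 1028 in P2 replicates 1, 2 and 4, against 99.1, 30.0, 57.3, 38.1 and 63.7 in P1 replicates 1, 2, 3, 5 and 6. The lowest P2 library was thus 7.78 times the highest P1 library, and each library matched its label. The log2 fold change was 4.20 ± 0.37 (SE; limma adjusted p = 2.3e-05), and only 0.211% of genes tested had a larger one. sp7 still gave at least 142 reads in each P1 library, so its transcript was also measured in the weakly fluorescent population.

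The Runx2 duplicates, which mark commitment to the osteoblast lineage, were higher in P2 but uneven among its libraries. runx2b had normalized read counts of 340, 79.6 and 693 in P2 replicates 1, 2 and 4, against 27.5, 39.3, 19.9, 18.0 and 29.6 in P1. The groups did not overlap, yet P2 replicate 2 reached only 2.03 times the highest P1 library. Its log2 fold change was 3.31 ± 0.56 (SE; limma adjusted p = 0.00259).

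runx2a had far fewer reads, between 57 and 398 in P2 libraries and between 8 and 66 in P1 libraries. Its normalized read counts were 84.8, 15.7 and 117 in P2 replicates 1, 2 and 4, against 3.32, 12.2, 2.21, 3.49 and 2.60 in P1. The groups almost touched, because P2 replicate 2 was only 1.28 times P1 replicate 2, the highest P1 library by a wide margin. The log2 fold change was 3.48 ± 0.66 (SE; limma adjusted p = 0.0056), and it was 4.34 without P2 replicate 2. Reads that fit both duplicates were assigned by the authors' pipeline in a way not written out in the sources used here, so the split between runx2a and runx2b is uncertain to that degree.

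runx3, another Runt family gene, known in mice from cartilage maturation and lymphocytes, was higher in P2 by a smaller factor. Its normalized read counts were 1354, 768 and 1625 in P2 replicates 1, 2 and 4, against 469, 237, 259, 267 and 320 in P1. The lowest P2 library was 1.64 times the highest P1 library, and the log2 fold change was 1.98 ± 0.33 (SE; limma adjusted p = 0.00252). Only 1 of 7 lymphocyte markers had enough reads to be tested, and it did not pass, at a log2 fold change of 0.98. The markers rag1 and ikzf1 had 0 reads in all P2 libraries. Summed lymphocyte markers were between 6.73 and 11.3 in P2 and between 3.89 and 25.0 in P1. Chondrocyte marker sums were between 4835 and 14339 in P2 and between 9723 and 16783 in P1, with 1 of 8 genes higher and 1 lower. The higher gene was sox9a, also counted among the antagonists below, whose call was kept in only 1 of 8 fits that left out a library. The part of lymphocyte or chondrocyte RNA in the runx3 values was not tested.

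runx1, known mainly from blood stem cells, did not pass. It had 17.3, 9.08 and 32.5 normalized reads in P2 replicates 1, 2 and 4 and between 3.49 and 13.6 in P1, with overlapping groups and a log2 fold change of 1.20 ± 0.52 (SE; limma adjusted p = 0.138).

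The mix of Runx reads was compared within each library, where it does not depend on scaling. runx3 gave most Runx reads everywhere, 75.4, 88.0 and 65.9% in P2 replicates 1, 2 and 4 and between 80.4 and 91.5% in P1. These are shares of reads and not of molecules, since transcript lengths were not used. runx2b gave 18.9, 9.13 and 28.1% in P2 and 5.36, 13.3, 6.93, 6.15 and 8.19% in P1 replicates 1, 2, 3, 5 and 6. P2 replicates 1 and 4 therefore stood above every P1 library, while P2 replicate 2 fell within the P1 range.

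The log2 ratio of runx2b to runx3 reads was 1.37 higher in P2, which did not pass by two-sided exact permutation over the 56 divisions of the libraries (p = 0.0536, and 0.0804 adjusted over the 3 ratios tested). The log2 ratio of runx2b to runx2a reads was 0.40 lower in P2 (difference -0.40; exact permutation p = 0.411, adjusted 0.411), so no shift between the duplicates was detectable with 3 and 5 libraries. The smallest p this design allows is 0.0179.

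**Figure D2:**
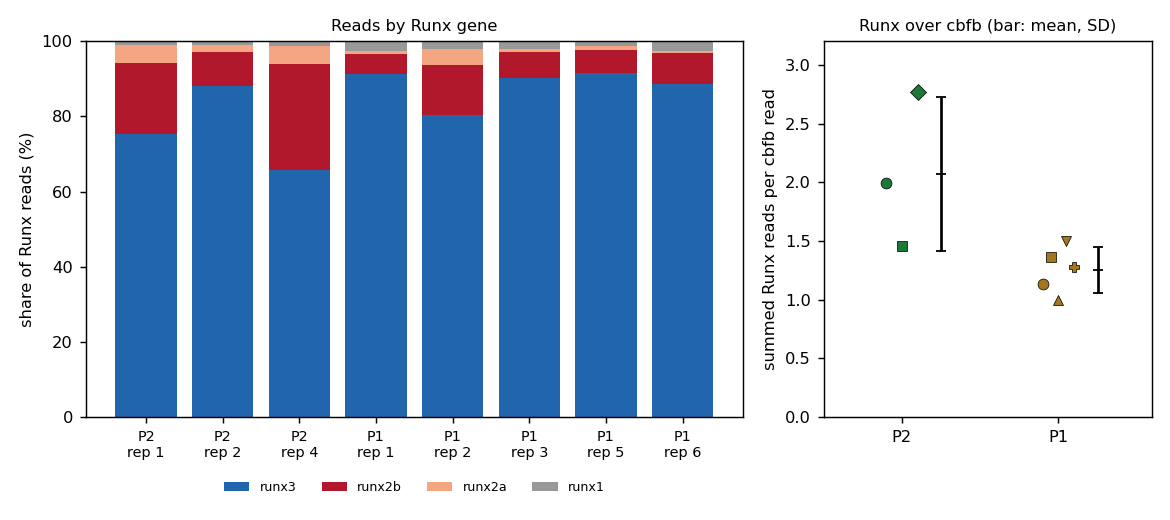
Left, the share of Runx reads (%) from each Runx gene in every library, P2 before P1. Right, summed Runx reads per cbfb read in each library, with the group mean and SD, where P2 lies between 1.46 and 2.77 and P1 between 0.992 and 1.50.

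cbfb, the shared partner of the Runx proteins, had normalized read counts of 901, 597 and 892 in P2 replicates 1, 2 and 4, against 452, 217, 290, 195 and 283 in P1. The groups did not overlap, with P2 replicate 2 at 1.32 times the highest P1 library. Its log2 fold change was 1.51 ± 0.32 (SE; limma adjusted p = 0.00998), the smallest among the 6 called of the 7 genes, and 6.07% of all genes tested had a larger one. Without P2 replicate 1 the value was 1.41 and no longer passed (adjusted p = 0.0624).

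Summed Runx reads per cbfb read were 1.99, 1.46 and 2.77 in P2 replicates 1, 2 and 4, against 1.13, 1.36, 0.992, 1.50 and 1.28 in P1. P2 replicate 2 lay among the P1 values, and the other P2 libraries above all of them. On the log2 scale the ratio was 0.69 higher in P2 (two-sided exact permutation p = 0.0357), and it did not pass after adjustment over the 3 ratios (0.0804).

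Genes of the MTG and Groucho-related tle families, both linked to Runx proteins, were also counted. Of 8 tested, cbfa2t2, of the MTG family, was higher and none was lower. It had 60.7, 24.5 and 91.6 normalized reads in P2 replicates 1, 2 and 4 and between 4.56 and 18.3 in P1, a log2 fold change of 2.34 ± 0.53 (SE; limma adjusted p = 0.0132). Its call was lost without P2 replicate 1 (adjusted p = 0.0682) or P2 replicate 4 (adjusted p = 0.0737). The other 7, with all the Groucho-related tle genes among them, had log2 fold changes between -0.10 and 0.88 and did not pass.

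mef2ca, a MADS box factor required for jaw patterning in zebrafish, had normalized read counts of 235, 117 and 326 in P2 replicates 1, 2 and 4, against 60.1, 37.1, 34.8, 41.3 and 90.4 in P1. All P2 libraries were above all P1 libraries, P2 replicate 2 by a factor of 1.29. The log2 fold change was 2.05 ± 0.41 (SE; limma adjusted p = 0.00677). Mef2 genes are also active in muscle, and P1 replicates 6 and 1, the highest P1 libraries for mef2ca, had the highest muscle marker sums of all libraries, 38311 and 27435. In P2 the order was the other way, since replicate 2 had the most muscle reads and the least mef2ca. P2 replicates 1 and 4 had muscle sums of 159 and 156, below every P1 library, and the highest mef2ca values of all. The part of muscle RNA in the mef2ca values was not tested.

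Of the 6 Mef2 genes tested, mef2ca included, 4 were higher in P2 and 0 lower. mef2cb, the duplicate of mef2ca, had 631, 396 and 681 normalized reads in P2 replicates 1, 2 and 4 and between 79.5 and 148 in P1, a log2 fold change of 2.42 ± 0.31 (SE; limma adjusted p = 0.000472). mef2aa and mef2ab had log2 fold changes of 2.14 and 2.50, and the call for mef2ab, which had at most 9 reads in any P1 library, was lost without P2 replicate 4 (adjusted p = 0.0654). mef2d did not pass, with 171 ± 66.0 normalized reads in P2 (SD, n = 3) and 148 ± 26.8 in P1 (SD, n = 5), and neither did mef2b.

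Class IIa histone deacetylases bind Mef2 proteins and hold down their targets. Of 5 tested, hdac5 alone passed, with a log2 fold change of 1.38 (limma adjusted p = 0.0269), and was named after its values were seen. That call was lost without P2 replicate 1, P2 replicate 4, P1 replicate 3 or P1 replicate 5 (adjusted p between 0.0515 and 0.120), and with mitochondrial genes kept out of the scaling (0.0582). The remaining 4 had log2 fold changes between 0.75 and 1.97 that did not pass. DESeq2 called 3 of the 5 deacetylase genes higher, hdac4 and hdac7a besides hdac5, and without P2 replicate 2 limma called 4, with hdac9b as well. hdac7a also passed without P1 replicate 2 (adjusted p = 0.0371).

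msx2b, a homeobox gene of skeletal and epithelial precursors, was the exception. Its normalized read counts were 112, 258 and 53.0 in P2 replicates 1, 2 and 4, against 118, 255, 86.3, 74.1 and 93.6 in P1 replicates 1, 2, 3, 5 and 6. The groups overlapped fully, since 1 P2 library was above all P1 libraries and another below all of them. The log2 fold change was 0.04 ± 0.50 (SE; limma adjusted p = 0.968). Its sign depended on the libraries used, between -0.54 and 0.59 when each was left out in turn, and this spread does not show that the level is the same in both populations.

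The high msx2b values came from replicate 2 of each population. P1 replicate 2 was 2.75 times the mean of the other P1 libraries, and the mean of P2 replicates 1 and 4 was only 0.319 times P2 replicate 2. P1 replicate 2 also had the highest keratinocyte marker sum of all libraries, 19758, against at most 3880 in the other P1 libraries, and P2 replicate 2 the highest of the P2 libraries, 2258. P1 replicate 1 had a keratinocyte sum of 2100, near that of P2 replicate 2, with 118 normalized reads of msx2b against 258. The part of keratinocyte RNA in the msx2b values was not tested, nor was that of a sort or clutch that same-numbered libraries may share.

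**Figure D3:**
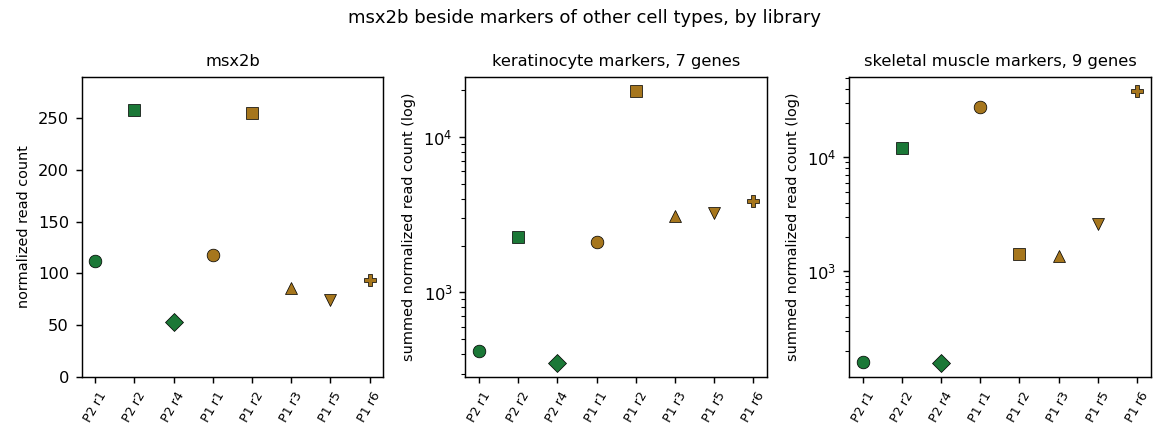
Normalized read count of msx2b (linear axis), and summed normalized read counts of 7 keratinocyte and 9 skeletal muscle markers (log axes), in each library, P2 in green and P1 in brown. Replicate 2 has the highest msx2b value and the highest keratinocyte sum within each population.

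No other Msx gene passed limma, so of 5 tested 0 were higher and 0 lower (2 at an unadjusted p under 0.05, with 0 calls by edgeR and 1 by DESeq2). msx2a, the duplicate of msx2b, came closest, with 44.8, 128 and 43.9 normalized reads in P2 replicates 1, 2 and 4, all above the P1 range of 6.18 to 32.2. Its log2 fold change was 1.69 ± 0.54 (SE; limma adjusted p = 0.0518). It passed without P1 replicate 2 (limma adjusted p = 0.0384). It also passed by DESeq2 on recovered reads of all 8 libraries (adjusted p = 0.0174) and under 3 other settings (adjusted p between 0.0428 and 0.0493). msx1b had 67.9 ± 12.1 normalized reads in P2 (SD, n = 3) and 113 ± 23.0 in P1 (SD, n = 5), with every P2 library below every P1 library, and did not pass (log2 fold change -0.72, adjusted p = 0.107). msx1a had a log2 fold change of 1.11 and msx3 of 0.10.

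Among Sp family genes other than sp7, 0 of 9 tested were higher in P2 and 2 were lower by limma (6 at an unadjusted p under 0.05, and 0 higher with 2 lower by edgeR and 3 lower by DESeq2). sp6, known in mice from tooth and skin epithelium, had 0 reads in all P2 libraries and 6.95, 25.6, 45.8, 21.7 and 3.90 normalized reads in P1 replicates 1, 2, 3, 5 and 6. It thus passed the read filter only through P1, where it was high. Against a floor of 3 reads in the P2 library where a read is worth most, its mean was at least 20.4-fold lower in P2 (limma adjusted p = 0.00309), a floor that covers counting error only. sp8a, which acts in limb and fin ectoderm, had 1.36, 5.51 and 4.98 normalized reads in P2 replicates 1, 2 and 4 and between 12.0 and 49.1 in P1, a log2 fold change of -2.63 (limma adjusted p = 0.00711). The keratinocyte marker sums were also mostly lower in P2, and their part in these epithelial Sp genes was not tested. The broadly expressed sp1, sp2, sp3a, sp3b and sp4 had log2 fold changes between -0.09 and 1.27 and did not pass. Without P2 replicate 2, sp3a (1.97, adjusted p = 0.0111) and sp3b (1.29, adjusted p = 0.0190) were higher.

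**Figure D4:**
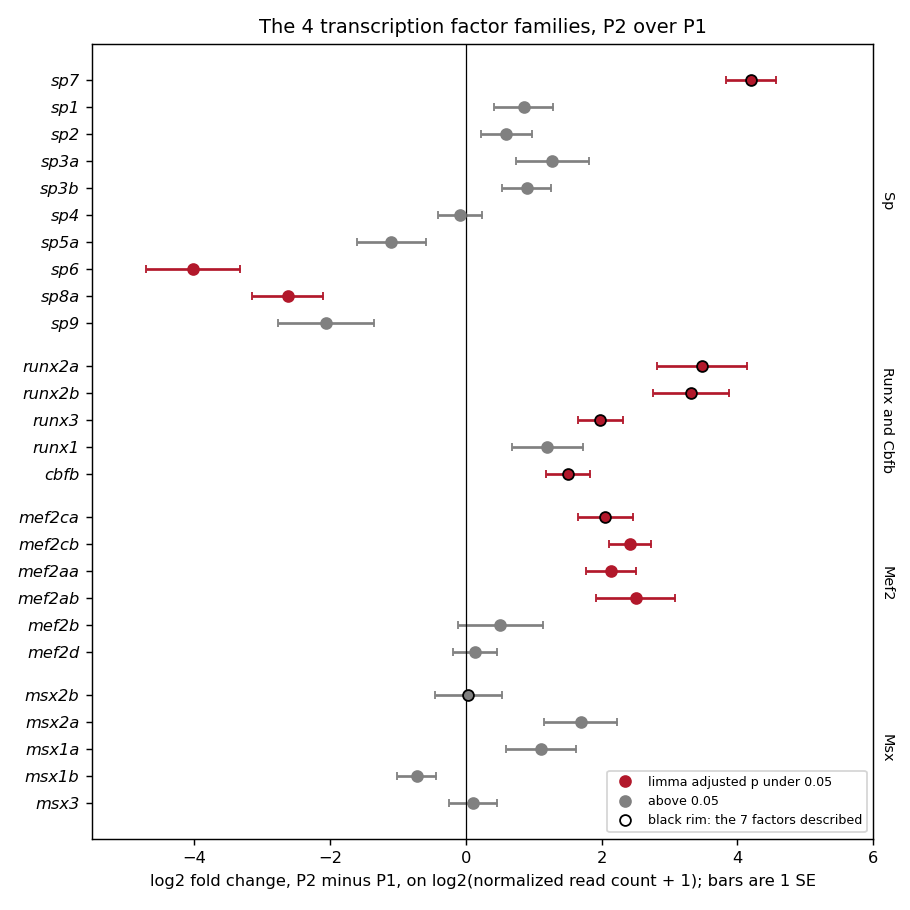
Log2 fold change (P2 minus P1, with 1 SE) of the tested genes of the Sp, Runx and Cbfb, Mef2 and Msx families, red where the limma adjusted p was under 0.05 and with a black rim for the 7 genes described. Runx and Mef2 genes lie to the right, from 0.14 to 3.48, while in the Sp family sp7 at 4.20 stands opposite sp6 and sp8a.

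P2 replicate 2 was nearer to P1 than the other P2 libraries for the same 6 genes. The share of all genes with this order was not counted, so it is not shown to be particular to them. Among other genes called higher, mef2aa, mef2cb, cbfa2t2 and hdac5 were also lowest there, while mef2ab was not. Leaving that library out raised the count of genes differing from 2700 to 4004. The mean of P2 replicates 1 and 4 was 6.49 times P2 replicate 2 for runx2b and 6.42 times for runx2a, but 2.40 times for mef2ca, 1.94 times for runx3, 1.50 times for cbfb and 1.46 times for sp7. The genes were thus lower by different factors in that library, the Runx2 duplicates by the most. The summed osteoblast markers were not lowest there, at 51848 in P2 replicate 2 against 63686 and 44022 in P2 replicates 1 and 4. Most of that sum was col10a1a, and single markers differed. In P2 replicates 1, 2 and 4, panx3 had 1951, 1133 and 1719 normalized reads, and phospho1 had 379, 164 and 937. These 2 and ifitm5 were lowest in P2 replicate 2, while col10a1a, spp1, bglapl and entpd5a were not. P2 replicate 2 was also the deepest P2 library and the one with the highest mitochondrial share, 23.0%, and the part of these measures in its lower Runx2 values was not tested. With P2 replicate 2 left out, the 6 genes had log2 fold changes between 1.70 and 4.38 and all still passed.

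Factors known to work with Runx2 or Sp7 were also followed. Of 15 tested, 6 were higher in P2 and 1 lower, with a median log2 fold change of 0.76, and without P2 replicate 1 or P2 replicate 4 only 3 were higher. tcf7, a transcription factor at the end of the Wnt pathway, had 104, 22.8 and 157 normalized reads in P2 replicates 1, 2 and 4 and between 2.15 and 5.85 in P1 (log2 fold change 4.13 ± 0.59, SE; limma adjusted p = 0.00102). lef1, which acts at the same point of that pathway, had 220, 99.9 and 314 normalized reads in P2 and between 40.0 and 75.1 in P1 (log2 fold change 1.83 ± 0.38, SE; limma adjusted p = 0.00899), a call lost without P2 replicate 1 (adjusted p = 0.0568) or P2 replicate 4 (adjusted p = 0.0549). Both were lowest in P2 replicate 2 among P2 libraries, as were the Runx2 genes and also mef2aa, mef2cb, cbfa2t2 and hdac5. This order is thus not particular to the Wnt factors and Runx2.

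vdra, a vitamin D receptor gene, and wwtr1, which encodes the coactivator TAZ, had log2 fold changes of 2.74 and 2.19. Their groups overlapped through P2 replicate 2, and with single libraries left out vdra passed in 3 of 8 fits and wwtr1 in 2 of 8. The gene that was lower, cebpb, a leucine zipper factor, had 379 ± 40.2 normalized reads in P2 (SD, n = 3) and 846 ± 93.1 in P1 (SD, n = 5), with a log2 fold change of -1.15 (limma adjusted p = 0.0123). It was named after its values were seen, and did not pass without P2 replicate 1 (adjusted p = 0.0711).

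Genes listed as antagonists of Runx2 or Sp7 were followed in the same way, and whether each acts as one was not tested. Of 14 tested, 1 was higher and 0 were lower, with a median log2 fold change of -0.24. The count of 1 is near the share of all genes called higher, 7.57%. The gene that passed was sox9a, the cartilage master factor that represses Runx2 activity in mice. It had 308, 83.1 and 407 normalized reads in P2 replicates 1, 2 and 4 and between 61.8 and 104 in P1. Its adjusted p of 0.0488 was kept in only 1 of 8 fits that left out a library, the one without P2 replicate 2, and under 5 of 15 other settings. The 4 Twist genes, whose products hold Runx2 inactive in early mouse skeletal cells, had log2 fold changes between -0.89 and 0.05 and 0 passed limma (1 at an unadjusted p under 0.05, and 0 by edgeR and by DESeq2). Without P2 replicate 2, and under TMM scaling, 2 genes of this list were lower by limma. They were twist1b (adjusted p = 0.0227 and 0.0317) and zbtb16a (adjusted p = 0.0345 and 0.0411), both named after their values were seen. The same 2 genes were lower with median of ratios, with mitochondrial genes kept out of the scaling, and without both replicate 2 libraries. DESeq2 (adjusted p = 0.0307) and the filter of 10 reads in every library (limma adjusted p = 0.0486) called zbtb16a lower but not twist1b. Without P1 replicate 2, 2 were lower as well, zbtb16a (adjusted p = 0.0294) and stat1b (adjusted p = 0.0441).

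Bone genes that Runx2 and Sp7 are known to drive were higher in P2 in 8 of 16 cases and lower in 2. This list shares 8 genes with the osteoblast markers above, so it is no separate evidence. ifitm5, a bone-restricted membrane protein gene, had 3961 ± 208 normalized reads in P2 (SD, n = 3) and 20.4 ± 19.9 in P1 (SD, n = 5). The log2 fold change was 7.96 for ifitm5, 7.82 for the collagen gene col10a1a, 7.18 for the channel gene panx3 and 5.75 for the phosphatase gene phospho1. These values exceeded those of all 7 transcription factor genes. The lower calls, named after their values were seen, were sost, which encodes the Wnt inhibitor sclerostin (19.8 ± 3.50 in P2, SD, n = 3, and 85.1 ± 24.1 in P1, SD, n = 5), and 1 of the 2 rows of the collagenase gene mmp13a. That mmp13a call was lost by edgeR (adjusted p = 0.174) and DESeq2 (adjusted p = 0.0690) and kept in 3 of 8 fits that left out a library. The same mmp13a row was also on the neutrophil marker list, so the 2 lists are not separate for it.

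**Figure D5:**
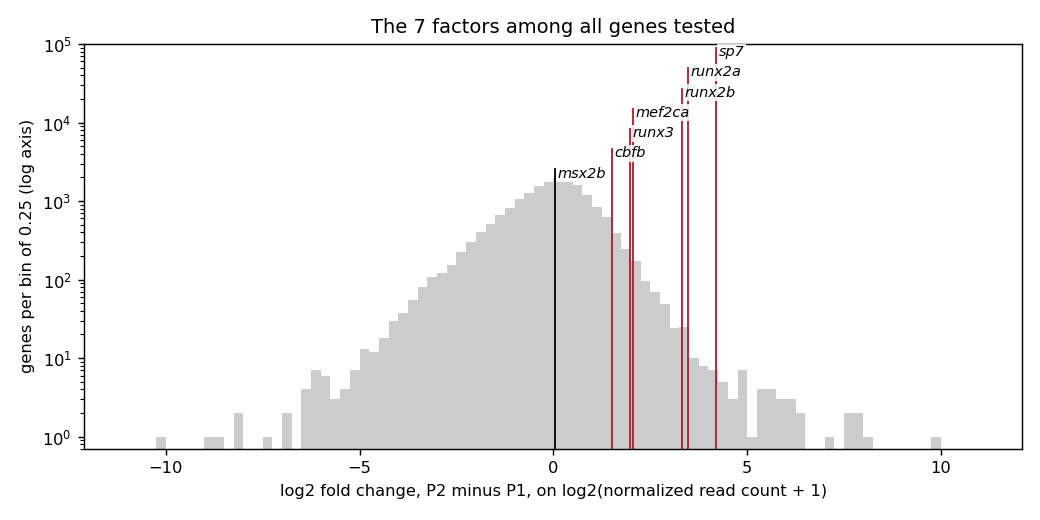
Distribution of log2 fold changes (P2 minus P1) over the 18475 genes tested, in bins of 0.25 with a log count axis, with the 7 genes marked, red where they passed the test. Only msx2b, at 0.04, lies in the middle, and 0.438% or less of genes lie beyond the Runx2 duplicates.

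The genes most like each called factor across the 8 libraries were found by Pearson's r of log2(normalized read count + 1) among 3249 genes with a mean of at least 100. Such values rest largely on the difference between the populations, and genes share the libraries, so they are a description. sp7 was most like slc8a4b (r = 0.998), panx3 (r = 0.995) and ifitm5 (r = 0.995). runx3 was most like the integrin gene itga11a (r = 0.993), mef2cb (r = 0.990) and cblb (r = 0.986). runx2b was most like sec24d, a gene for a coat protein of vesicles leaving the endoplasmic reticulum (r = 0.990), sec63 (r = 0.988) and the Wnt pathway factor lef1 (r = 0.986). runx2a was most like dlg1 (r = 0.984), lrig2 (r = 0.981) and sbf1 (r = 0.980). cbfb was most like the keratin gene krt8 (r = 0.992), snd1 (r = 0.987) and cblb (r = 0.979), and mef2ca was most like stag2b (r = 0.975), MYO1D (r = 0.972) and psme4b (r = 0.971). Apart from cblb, shared by runx3 and cbfb, no gene appeared in more than 1 of these lists.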

How the data were processed

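The authors mapped reads to GRCz11 with the nf-core rnaseq pipeline and the Ensembl annotation, and the deposited signal values are read counts that they divided by 1 DESeq2 size factor per library. Whole reads were recovered for 100% of values (within 0.01 of a read). Both deposited value tables agreed for P1 and P2 (0 differing values), and 10 columns that match no sample were not used. The remaining 2 tables hold the authors' own comparisons (log2 fold changes and p-values) and were not used. No library was a copy of another.

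Genes that reached 10 recovered reads in 3 or more libraries were tested with limma 3.58.1 in R 4.3.3 (trended variance) on log2(normalized read count + 1), with Benjamini-Hochberg adjustment over all 18475 genes and calls at an adjusted p under 0.05. Ratios within libraries were compared by exact permutation. Alternatives covered pseudocount, filter, scaling, voom, edgeR 4.0.16 and DESeq2 1.42.0 on recovered reads, left-out libraries and a replicate block. The limma step was tested on simulated counts that held no differences in cell content between libraries of a population. That test therefore does not cover such differences. Amplified cDNA carried no molecular identifiers, and read numbers therefore do not count molecules.

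The 7 genes and all lists (7 pathway and 13 marker lists) were chosen with earlier results of these data known. Named were the 7 genes, their family members, at most 4 called genes per pathway list by size of change, and the 3 most similar genes per called gene. Beyond this rule hdac4, hdac5, hdac7a, hdac9b, cebpb, sost, mmp13a, twist1b, zbtb16a and stat1b were named after their values were seen, as were the marker genes at 0 reads. Neither coordinates nor sequences were used here. One gene of the co-activator list is not reported here, and its counts leave it out. For marker lists not described in the results, the numbers lower in P2 were 1 of 5 neutrophil, 3 of 4 osteoclast, 1 of 5 erythroid, 3 of 5 endothelial, 3 of 8 neuron and 0 of 3 pigment cell genes tested, none of these lists had a gene higher in P2, and of cardiac muscle genes 0 could be tested. The 1 neutrophil call was the mmp13a row that was also counted as lower among the bone genes.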

Additional observations from a re-analysis of the deposited data

Results flagged for a closer look

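Of 10 groups of library values tested for a sample far from the rest, of which chance flags about 1 in 20, 2 held such a library, both times P1 replicate 2. For runx2a it had 12.2 normalized reads, with the next P1 library at 3.49 (gap over range 0.873). For msx2b it had 255 normalized reads, with the next P1 library at 118 (gap over range 0.760).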

How the results depend on the processing

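Fits, filters, scalings and single left-out libraries changed no direction among the 6 called genes, and among these settings only leaving out P2 replicate 1 ended a call, that of cbfb. The count of genes differing was 2700, against 1741 with at least 10 reads required in every library (which drops runx2a), 1601 with voom weights, 4792 without both replicate 2 libraries (chosen after the data were seen), and between 901 and 4004 with single libraries left out. The cause of these shifts was not tested. edgeR called 2254 genes and DESeq2 3150. With single libraries left out, log2 fold changes ranged from 4.00 to 4.42 for sp7, 2.94 to 4.34 for runx2a, 2.63 to 4.18 for runx2b, 1.76 to 2.30 for runx3, 1.38 to 1.70 for cbfb, 1.73 to 2.47 for mef2ca, -0.54 to 0.59 for msx2b, -0.081 to 0.51 for mef2d and -0.26 to 0.49 for msx3.

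The sign of msx2b turned under TMM scaling (-0.10), median of ratios (-0.10), library size without mitochondrial genes (-0.072) and without both replicate 2 libraries (-0.25), and that of msx3 under the same settings (-0.039, -0.037, -0.0095 and -0.31). TMM and median of ratios shifted the median of all genes by -0.12.

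Replicate numbers 1 and 2 occur in both populations, and their titles share a prefix whose meaning is not stated. Same-numbered libraries did not deviate together over all genes (r = 0.00 and -0.13), which with 2 pairs does not settle whether they are paired. A fixed replicate block compares replicates 1 and 2 only. It called 444 genes and 1 of the 7 genes (sp7), and without the block the same 4 libraries called 199 and 1. In both, the log2 fold change was 2.32 for runx2a (block adjusted p = 0.278, without 0.328), 2.29 for runx2b (0.0701, 0.171), 1.61 for runx3 (0.183, 0.267), 1.22 for cbfb (0.393, 0.427), 1.79 for mef2ca (0.137, 0.210) and -0.027 for msx2b. Fewer libraries enter these fits. A block as random effect changed no call among the 7 genes. The 3 read ratios did not pass after adjustment under any setting that gave a p, which the replicate block did not. Without both replicate 2 libraries the smallest possible p was 0.0667, so none could pass there. With 1 P2 library left out it was 0.0476, so a pass needed all 3 ratios at that value. runx2a rests on as few as 8 reads in P1, which limits its fold change.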
